A study of Schizosaccharomyces pombe with 2 samples.

Results

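The stress-activated MAP kinase pathway of fission yeast, Schizosaccharomyces pombe, and the transcription factors that respond to stress were followed through 10 genes. They were chosen by name as the kinase genes wis1 and sty1, the upstream regulator gene mcs4, the phosphatase genes pyp1 and pyp2, and the transcription factor genes atf1, pcr1, pap1, prr1 and hsf1. Each was found among the 5006 gene probe names of the arrays. Of the 10, 9 carry their current symbol there, and hsf1 is spotted under its older name hsf, a synonym in the gene table used. In that gene table, chromosome I holds 7 of the genes and chromosome II the other 3.

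In this pathway the MAP kinase kinase Wis1 phosphorylates the MAP kinase Sty1 when cells meet osmotic, oxidative, heat or nutritional stress. The tyrosine phosphatases Pyp1 and Pyp2 remove the tyrosine phosphate of Sty1. Active Sty1 enters the nucleus, where the bZIP proteins Atf1 and Pcr1, which pair with each other, drive most of the general stress response. Pap1, another bZIP protein, and the response regulator Prr1 act together on oxidative stress genes, and Hsf1 is the heat-shock transcription factor. Control of this pathway is largely at the level of protein phosphorylation and localisation, which arrays do not measure.

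A total of 2 spotted arrays were hybridised, each with RNA of the culture labelled WT-pDUAL-Ssn6 and of the culture labelled WT-pDUAL-empty. Both are wild-type cells, and they carry either a plasmid that expresses Ssn6, which forms a corepressor of transcription with Tup11 and Tup12, or the empty plasmid. Both grew to log phase at 30 °C in uracil-free minimal medium, so both groups share the selection for the plasmid. The labels place the Ssn6 culture in Cy3 on array 1 and in Cy5 on array 2, from 2 RNA preparations per the series' design text. The promoter that drives Ssn6 is not given in the sources used here. Nothing says whether the preparations came from separate cultures, so p-values rest only on the spread between these arrays, which may be technical. In limma each gene's variance is drawn mostly from all genes tested (7.62 prior degrees of freedom) and less from its own 2 ratios. An exact sign-flip test of 1 gene over 2 arrays cannot go below p = 0.5.

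The scanner files name their channels A and B, with neither dye nor culture. On each array the ssn6 transcript itself had its brighter signal in channel B, with log2 ratios of 1.91 and 2.18 after normalization (2.04 ± 0.19, SD, n = 2, adjusted p = 5.93e-05 in limma). Channel B is therefore likely the Ssn6 culture on both arrays, which a dye swap with fixed channels would not give. The arrays ran the same way over all genes (Pearson's r = 0.807 across genes, which are not replicates), so averaging them may leave a dye bias in place. Ratios run as channel B over channel A, on a log2 scale after loess normalization, and are called lower or higher in channel B. Between 97.9% and 99.8% of gene spots had signal. The number of arrays limits the precision: each gene has 1 ratio per array.

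Of the 10 genes, 3 were lower in channel B at an adjusted p under 0.05, 0 were higher and 7 did not pass. All 3 were transcription factor genes, pcr1, pap1 and atf1, and none of the 5 genes for kinases, phosphatases and the upstream regulator passed in limma. At an unadjusted p under 0.05 pyp1 joined them, giving 4 genes. Across the 4854 genes tested on these arrays 16.8% were called lower, 11.5% higher and 28.3% either way. The 3 of 10 called in either direction are close to that last share. The same 3 genes were at least 1.5-fold lower in channel B on each array, against 11.6% of all genes, while 0 were as much higher, against 6.24%. What follows is therefore an account of single genes, and the count marks nothing particular to the pathway. The median ratio of the 10 genes was -0.24, against 0.01 over all genes.

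**Figure D1:**
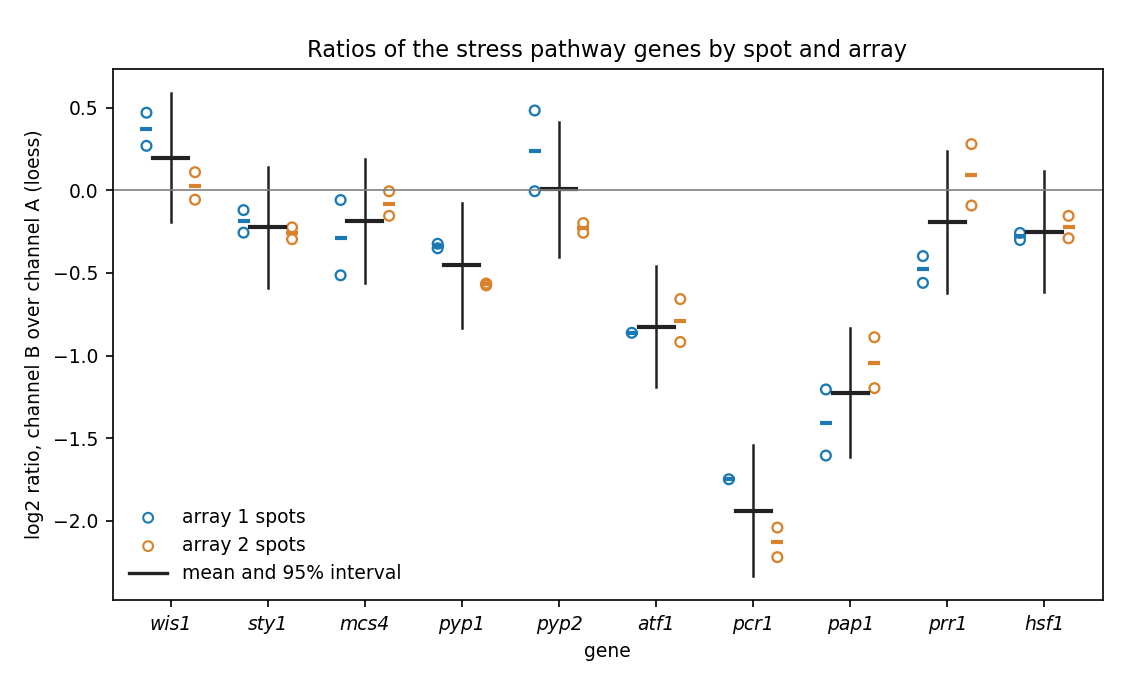
Ratio of channel B to channel A for the 10 genes, on a log2 scale after loess. Open circles are single spots on array 1 (blue) and array 2 (orange), short coloured bars are the array means, and the black bar and line are the mean of the arrays and its 95% interval from limma. The intervals of pcr1, pap1, atf1 and pyp1 lie below 0, and pyp1 did not pass after adjustment (adjusted p = 0.0715).

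Each gene was spotted 2 times on each array. Of the 40 spots, 38 had signal, and none of those held saturated pixels. The second spots of atf1 and of pcr1 read 0 in both channels on array 1, so these genes have 1 spot there and 2 on array 2. The signals of the 38 spots ran from 34785 to 424710. The dimmest readings of the 10 genes were 1.77 and 1.95 times the limit set by blank and non-yeast spots in channel A on arrays 1 and 2, and no less in channel B than 1.91 times it. Duplicate spots of one gene differed by a median of 0.194 on array 1 and 0.145 on array 2 over all genes, on the log2 scale.

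The gene pcr1 encodes the smaller bZIP partner of Atf1. Its spot with signal on array 1 read 204257 in channel A against 67448 in channel B. On array 2 its spots read 262488 and 232727 in channel A against 70147 and 70034 in channel B. Channel A was the brighter in all 3 spots, by 3.03-fold on array 1 and by 3.74-fold and 3.32-fold on array 2, before any normalization. After loess the ratio was -1.75 on array 1 and -2.13 on array 2, a mean of -1.94 ± 0.27 (SD, n = 2). That is 3.84-fold higher in channel A, with a 95% interval of 2.92-fold to 5.05-fold (adjusted p = 9.86e-05 in limma). Only 1.75% of all genes tested had a lower ratio than pcr1.

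The gene pap1 encodes the oxidative stress bZIP factor that is held outside the nucleus until cells meet peroxide or certain drugs. Its array 1 spots read 351375 and 424710 in channel A against 192824 and 178868 in channel B. Its array 2 spots read 324266 and 315370 in channel A and 183627 and 222597 in channel B. All 4 spots were brighter in channel A, by between 1.42-fold and 2.37-fold, and the readings of the channels did not overlap. The 2.37-fold spot, on array 1, carried a flag in channel B that the other pap1 spots did not. With flagged spots left out the mean log2 ratio of pap1 was -1.12 (adjusted p = 0.000961 in limma). After loess the duplicate spots of pap1 were 0.40 apart on array 1 and 0.31 on array 2, more than the medians over all genes. With all spots kept the ratio was -1.41 on array 1 and -1.04 on array 2, with a mean of -1.22 ± 0.26 (SD, n = 2). This is 2.34-fold higher in channel A, with an interval of 1.78-fold to 3.07-fold (adjusted p = 0.00109 in limma).

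The gene atf1 encodes the bZIP factor that Sty1 binds and phosphorylates. Its array 1 spot read 300727 in channel A against 207545 in channel B, and its array 2 spots 337915 and 289162 against 234965 and 239440. Channel A was again the brighter in every spot with signal, by 1.45-fold on array 1 and by 1.44-fold and 1.21-fold on array 2. Loess took 0.33 off the log2 ratio of the array 1 spot and 0.39 off each array 2 spot, and the array 2 spots were then 0.26 apart. After loess the ratio was -0.86 on array 1 and -0.79 on array 2, with a mean of -0.83 ± 0.05 (SD, n = 2). The level in channel A was 1.77-fold higher, with an interval of 1.37-fold to 2.29-fold (adjusted p = 0.00575 in limma).

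Both partners of the Atf1-Pcr1 pair were thus lower in channel B, pcr1 by more. The ratio of pcr1 minus that of atf1 was -0.89 on array 1 and -1.34 on array 2. The ratio of pcr1 minus that of pap1 was -0.34 and -1.09, and that of pap1 minus that of atf1 was -0.54 and -0.26. The order pcr1, pap1, atf1 was the same on both arrays, but the intervals of pcr1 and pap1 overlap, as do those of pap1 and atf1, and with 2 arrays an exact sign-flip test of such a difference cannot go below p = 0.5.

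**Figure D2:**
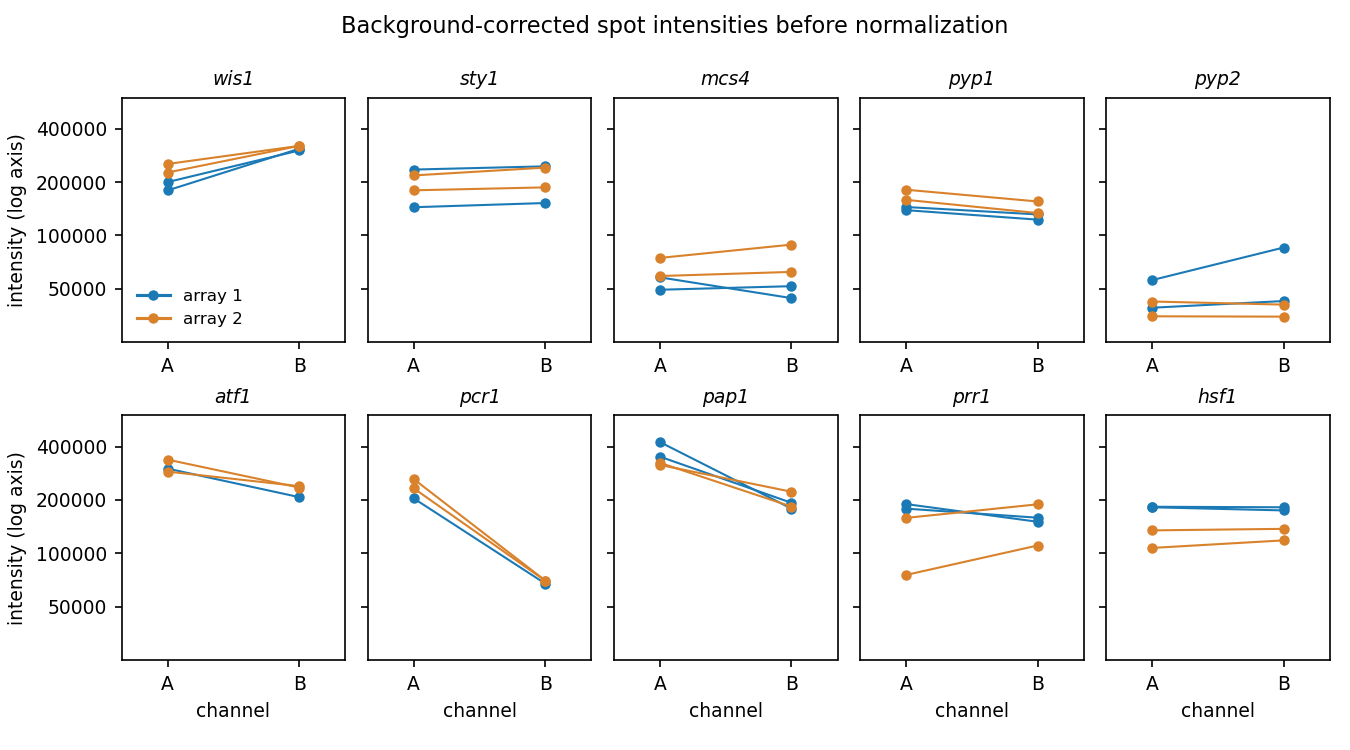
Background-corrected intensity of each spot (log axis) in channel A and channel B, before normalization, 1 panel per gene, with a line joining the channels of a spot on array 1 (blue) or array 2 (orange). The lines of pcr1, pap1, atf1 and pyp1 slope down in every spot, those of wis1 and sty1 slope up, and those of mcs4, pyp2, prr1 and hsf1 run both ways.

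The gene wis1 encodes the MAP kinase kinase. On array 1 its spots read 199904 and 179344 in channel A against 301447 and 308242 in channel B, and on array 2 226383 and 252908 against 319968 and 320032. Before normalization wis1 was thus brighter in channel B in every spot, by between 1.27-fold and 1.72-fold, as sty1 was by at most 1.11-fold. At spots of this brightness channel B was brighter for genes in general, and loess took between 0.31 and 0.40 off the wis1 log2 ratios. The normalized ratio was 0.37 on array 1 and 0.03 on array 2, with a mean of 0.20 ± 0.24 (SD, n = 2, adjusted p = 0.414 in limma). The 95% interval ran from -0.19 to 0.59.

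The gene sty1 encodes the MAP kinase itself. Its array 1 spots read 235206 and 144179 in channel A against 245289 and 152273 in channel B. Its array 2 spots read 179619 and 217964 against 186627 and 241310. The channels differed by at most 1.11-fold in any spot. After loess the ratio was -0.19 on array 1 and -0.26 on array 2, with a mean of -0.22 ± 0.05 (SD, n = 2, adjusted p = 0.328 in limma). The interval, -0.59 to 0.14, still allows a level in channel A up to 1.51-fold higher.

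The gene mcs4 encodes the response regulator that passes the phosphorelay signal on to the MAP kinase kinase kinases. Its array 1 spots went opposite ways, with 49335 and 57968 in channel A against 51679 and 44259 in channel B. On array 2 they read 58963 and 74614 against 62220 and 88667. Its ratio was -0.29 on array 1 and -0.08 on array 2, with a mean of -0.18 ± 0.15 (SD, n = 2, adjusted p = 0.437 in limma). The duplicate spots on array 1 were 0.46 apart, more than the distance of the mean from 0.

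The gene pyp1 encodes the tyrosine phosphatase that holds Sty1 activity down in unstressed cells. On array 1 the spots of pyp1 read 144624 and 138817 in channel A against 131333 and 122712 in channel B, and on array 2 181043 and 158743 against 155390 and 133685. All 4 were brighter in channel A, by at most 1.19-fold, and duplicates lay within 0.03 of each other after loess. The ratio of pyp1 was -0.34 on array 1 and -0.57 on array 2, with a mean of -0.45 ± 0.16 (SD, n = 2). It did not pass after adjustment (adjusted p = 0.0715 in limma), and its interval reached a level 1.78-fold higher in channel A.

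The gene pyp2 is itself a target of Atf1, and its product closes a negative feedback loop on Sty1. Its array 1 spots read 39063 and 55926 in channel A against 42605 and 85410 in channel B, and its array 2 spots 42344 and 34944 against 40666 and 34785. The ratio was 0.24 on array 1 and -0.23 on array 2, so its mean of 0.01 ± 0.33 (SD, n = 2) has no settled sign (adjusted p = 0.981 in limma). Of the 10 genes, pyp2 and prr1 were the only ones with opposite signs on the arrays. Its interval of -0.40 to 0.42 leaves out a ratio as low as that of atf1.

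The gene prr1 encodes the response regulator transcription factor that works with Pap1. On array 1 its spots read 189677 and 178766 in channel A against 150698 and 158852 in channel B. On array 2 the order was the reverse, with 158404 and 75489 in channel A against 189025 and 110682 in channel B. The ratio was -0.48 on array 1 and 0.09 on array 2, with a mean of -0.19 ± 0.41 (SD, n = 2, adjusted p = 0.474 in limma). Its spread between arrays was the largest among the 10 genes, and the interval of -0.62 to 0.24 shows no direction.

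The gene hsf1 encodes the essential heat-shock factor. On array 1 its spots read 181892 and 183114 in channel A against 174628 and 181878 in channel B, and on array 2 107254 and 134727 against 118323 and 137443. The ratio was -0.28 on array 1 and -0.22 on array 2, with a mean of -0.25 ± 0.04 (SD, n = 2, adjusted p = 0.276 in limma). The interval of -0.62 to 0.12 leaves out any level in channel B that is higher by more than 0.12 on the log2 scale. The 7 genes that did not pass had ratios from -0.48 to 0.37 on array 1 and from -0.57 to 0.09 on array 2.

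**Figure D3:**
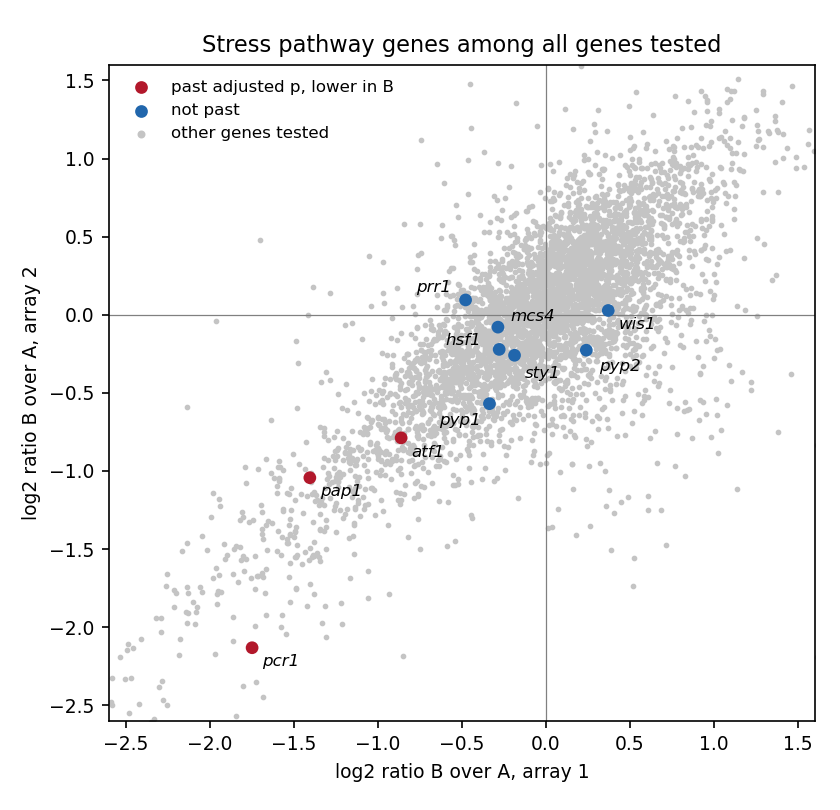
Ratio of channel B to channel A (log2) on array 1 (horizontal) and array 2 (vertical) for all genes tested (grey) and the 10 genes (red, past the adjusted p and lower in channel B; blue, not past). The axes run from -2.6 to 1.6 and leave 95 genes outside. The red points lie along the diagonal in the lower left, and prr1, wis1 and pyp2 lie off it.

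Loess took between 0.12 and 0.40 off the log2 ratio of every spot of the 10 genes. Under 12 other settings that keep the arrays' signs, the mean of pcr1 stayed between -2.01 and -1.91, that of pap1 between -1.25 and -1.05 and that of atf1 between -0.89 and -0.70, with 1 setting fewer for pcr1 and atf1, whose second spots have no value on array 1. With the authors' deposited values, which are normalized ratios resting on 1 spot per array for most genes, 0 genes passed in limma (1785 at an unadjusted p under 0.05). There pcr1 was at -1.91, pap1 at -1.10 and atf1 at -0.76, with adjusted p = 0.0743, 0.0743 and 0.0744. The sign of pyp2 changed under several settings, and with the sign of array 1 turned the ratios of 7 of the 10 genes changed sign and none passed.

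**Figure D4:**
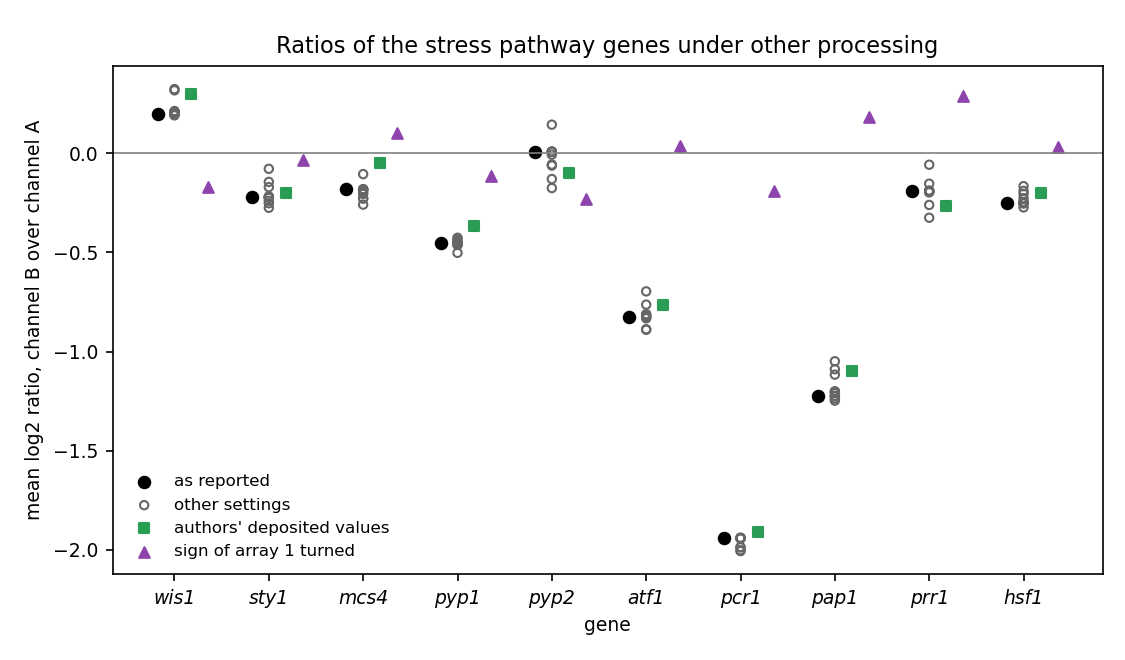
Mean ratio of channel B to channel A (log2) for the 10 genes as reported (black), under the other settings (open circles), from the authors' deposited values (green squares) and with the sign of array 1 turned (purple triangles). Apart from the triangles, pcr1, pap1 and atf1 stay below 0 under every setting, the highest being atf1 at -0.697 with median centring, and pyp2 falls on both sides of 0.

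Other components of the pathway were read from a list of 18 genes, all tested. Their median ratio was -0.37: 6 were lower in channel B and 12 did not pass, and 0 were higher. With median spot ratios 4 were lower, and with second spots 2. These and the following lists stand beside the 16.8% lower and 11.5% higher of all genes tested and their median of 0.01. The gene wis4, which encodes a MAP kinase kinase kinase that acts on Wis1 together with Mcs4, had the lowest ratio, at -2.26 on array 1 and -1.66 on array 2 (adjusted p = 0.000154 in limma). The gene srk1, for a kinase that Sty1 activates, was at -1.05 ± 0.01, and ptc1, for a phosphatase of the pathway, at -0.86 ± 0.29. The RNA-binding protein gene rnc1 was at -0.53 ± 0.04, and with median centring it had -0.36 and did not pass (adjusted p = 0.123). The other genes called were win1, for a further MAP kinase kinase kinase, and mak2, for a histidine kinase.

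Genes listed as targets of the factors were found in both directions. The lists share genes, so their counts are not separate. The core and oxidative lists both hold ctt1, srx1 and trx2, and the core and chaperone lists both hold hsp16, hsp104 and psi1. The list of other pathway components and the core list both hold srk1 and cmk2. Of 24 core stress response genes, most of them under Sty1 and Atf1, 16 were lower in channel B and 5 higher, with a median of -0.89. Those named by the smaller of their ratios on the arrays were hsp9, for a small heat-shock protein (-2.93 ± 0.24), isp6, for a protease (-2.49 ± 0.47), rds1 (-2.46 ± 0.18) and cta3, for a cation pump (-1.67 ± 0.02). With median centring hsp9 was at -2.06 and isp6 at -1.74, and both still passed. The probe of hsp9 had 3 saturated spots and has no value without them. With second spots 8 of the 24 were lower and 2 higher. The metallothionein gene zym1 was higher at 0.94 ± 0.06, and so was plr1, for pyridoxal reductase, at 1.32 ± 0.26.

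Of 13 oxidative stress genes assigned to Pap1 and Prr1, 5 were higher and 3 lower. Their median was -0.12, and it turned to 0.75 with median centring, where 8 were higher and 3 lower. It was also above 0 without saturated spots (0.18) and with the authors' deposited values (0.35), and with second spots 2 genes were higher and 0 lower. With no dim filter, median spot ratios, first spots or no saturated spots, 4 were higher and 3 lower. The glutathione transferase gene gst2 was higher, with ratios of 1.36 and 1.64 on the arrays, and so was obr1, at 0.75 ± 0.06. The 5 higher include apt1 (1.08 ± 0.02), found by symbol alone at SPAC23A1.03. That locus may not be the gene the list means, and whether it is a Pap1 target was not tested. The lower ones were the catalase gene ctt1 (-1.29 ± 0.53), the sulfiredoxin gene srx1 (-0.87 ± 0.35) and caf5 (-0.60 ± 0.05). The listed genes were thus called in both directions, and whether their ratios depend on the level of the pap1 transcript was not tested.

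Of 16 tested chaperone and heat-shock genes, of 19 listed, 11 were higher and 3 lower, beside an hsf1 transcript that did not pass. Their median was 1.01, and with second spots 8 were higher and 0 lower. The chaperone gene hsp90 was at 2.80 ± 0.01 with 1 saturated spot, ssa1 at 2.72 ± 0.40, and the cyclophilin gene wis2 at 2.42 ± 0.04. The lower ones were hsp16 (-0.84 ± 0.03), ubi4 (-0.77 ± 0.28) and hsp60 (-0.63 ± 0.19). With median centring ubi4 had -0.17 and hsp60 -0.04, and neither passed (adjusted p = 0.478 and 0.875).

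Other MAP kinase pathways of the cell, those of cell integrity and mating, gave 0 higher, 2 lower and 8 not past among 10 tested genes. These were ste11, the mating transcription factor gene (-1.24 ± 0.02), and byr1, the mating MAP kinase kinase gene (-0.59 ± 0.26), which did not pass with median centring (adjusted p = 0.0652). Among 12 other stress-linked transcription factor genes 4 were lower and 1 higher, with a median of -0.36. With no dim filter, without saturated spots or with first spots, 2 were lower and 0 higher, and with second spots 1 and 0. There phx1, cbf12 and php4, close to the threshold as reported, did not pass. The lowest was zip1, a bZIP factor gene, at -1.50 ± 0.06, which was -0.82 with median centring. The atf1 relatives atf21 and atf31 did not pass, with ratios of 0.22 and -0.44 for atf21 and of 0.20 and -0.09 for atf31 on the arrays. These lists were written with earlier results of these data known, and no test of a list as a whole was made.

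**Figure D5:**
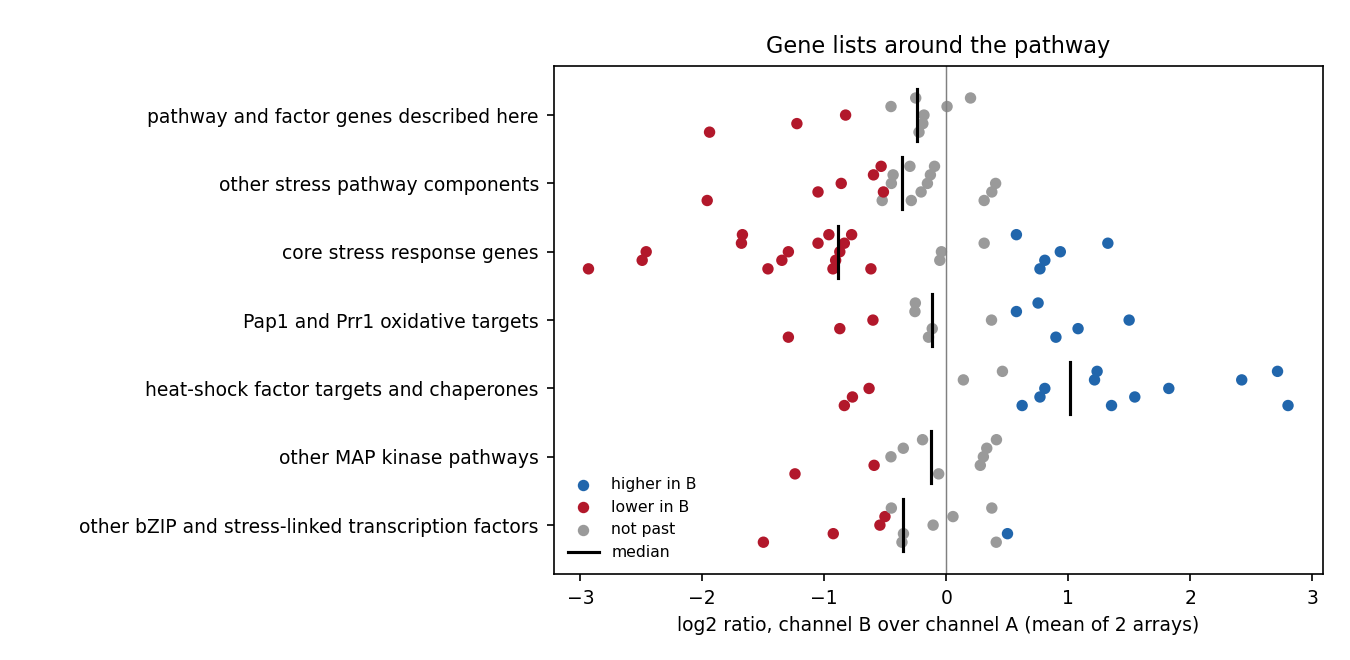
Mean ratio of channel B to channel A (log2) for each tested gene of the 10 genes described and of 6 lists around them. Points are genes (blue, past the adjusted p and higher in channel B; red, past and lower; grey, not past), spread vertically only to separate them, and the black bars are medians. The core stress response genes centre at -0.89 and the chaperone genes at 1.01, with the medians of the other lists between -0.37 and -0.12.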

How the data were processed

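Spot intensity in channels A and B was deposited with the background already subtracted, per the file headers, beside the background intensity, the linear channel ratio by median and a saturation factor, a fraction from 0 to 1. A separate table deposited by the authors gives ratios that were lowess-normalized (series' design text), on what its values show to be a log10 scale. Its first 5760 rows followed the log10 channel B to A ratio (r = 0.916 and 0.941 on arrays 1 and 2). The remaining rows did not (r = 0.0356 and 0.0566) and were not used. Each column had a median of 0.01, and -2 was a floor treated as missing. The scanner software is not given in the sources used here.

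An offset of 50 was added to the deposited intensities in place of a further background correction. Log2 ratios were normalized within each array by loess (span 0.3, controls at weight 0), spots of a probe were averaged, and the mean of 2 arrays was tested against 0 with limma 3.58.1 in R 4.3.3, two-sided, with Benjamini-Hochberg adjustment over 4854 genes. Left out were 148 probe names that were dim in both channels of an array (under the 95th percentile of 822 blank, Escherichia coli and luciferase spots) and 4 without a value on both arrays. Names were matched to the RefSeq gene table of assembly ASM294v3 for 4777 of 5006 probe names. The steps were tested on simulated data.

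The 10 genes, the lists and the tests were chosen with earlier results of these data known. From each list up to 4 genes in each direction were open to naming, those with the largest smaller-of-the-arrays ratio among genes past the adjusted p. The alternatives were median centring, print-tip loess, offset 0, normexp, median spot ratios, leaving out saturated or flagged spots, no dim filter, the authors' values, an intensity trend in limma, array 1 turned, single spots and single arrays.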

Additional observations from a re-analysis of the deposited data

How the results depend on the processing

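The calls of pcr1, pap1 and atf1 as lower in channel B held under 9 alternatives to the normalization, background, spots, flags, filter and variance model, and with the first spots only, and the other 7 genes passed under none. With the authors' deposited values 0 genes were called in place of 1373, and 0 of the 10. There pcr1 (-1.91), pap1 (-1.10) and atf1 (-0.76) kept their direction without passing. With the second spot of each probe 500 genes were called, and 1 of the 8 stress pathway genes measured there, pap1. The cause was not tested. With the sign of array 1 turned, 0 genes were called (6 at an unadjusted p under 0.05) and 0 of the 10. The ratios changed sign to 0.037 for atf1, 0.028 for hsf1, 0.10 for mcs4, 0.18 for pap1, 0.29 for prr1, -0.23 for pyp2 and -0.17 for wis1, and pcr1 had -0.19. The sign of pyp2 turned with the authors' values (-0.10), first spots (-0.13), median centring (-0.063), median spot ratios (-0.18), normexp (-0.0078) and print-tip loess (-0.058). Single arrays give a value with no test. Each array holds both cultures, so its ratio is already a paired difference, and no further block was fitted.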

Other observations

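The genes next to the 10 on their chromosomes were read as well, the nearest tested gene on each side in the order of the gene table. Of the 20 neighbours, 5 were lower in channel B, 2 higher and 13 did not pass, beside 16.8% lower and 11.5% higher among all genes tested. Beside pcr1 the neighbours went opposite ways: aca1, for an L-azetidine-2-carboxylic acid acetyltransferase, was at -4.73 ± 0.40, and the ribosomal protein gene rpl801 at 1.25 ± 0.34 with 3 saturated spots. The neighbours of pap1 were the autophagy gene atg12, at -0.77 ± 0.004, and rpl1502, which did not pass (0.20 ± 0.27). Beside atf1, fic1 was higher in channel B at 0.63 ± 0.47 and isp4 did not pass (0.31 ± 0.03).

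The neighbours of the genes that did not pass included SPAC2E12.03C, beside hsf1, at -2.32 ± 0.04, a Tf2-8 retrotransposon probe beside pyp2 at -4.19 ± 0.21 with 4 saturated spots, and SPBC409.08, beside wis1, at -0.52 ± 0.01. Tf2 copies are alike in sequence, so this value does not belong to that copy alone. Whether position plays a part in any of these ratios was not tested.

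Some genes of the oxidative list went apart between the arrays. The thioredoxin reductase gene trr1 had -0.21 on array 1 and 0.95 on array 2, and the peroxiredoxin gene pmp20 had 0.21 and 1.59. Of these, pmp20 is among the genes of that list called higher, at 0.90 ± 0.98 (adjusted p = 0.0455 in limma). Both were picked after their values were seen.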
